A study of Mus musculus with 29 samples.

Results

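The comparison described here is that of untargeted podocytes 4 days and 1 day after a toxin injection, sorted by their EGFP fluorescence from mouse kidneys. Its members are all 7 arrays whose titles give EGFP and one of these days, 4 arrays of day 4 and 3 arrays of day 1, of 29 arrays in the series. The mice carried the genotype Pod-hCD25T/G on the C57BL/6J background, were male and 8 weeks old, and at days 1 and 4 had lost a kidney by surgery and then received the immunotoxin LMB2 at 25 ng per gram of body weight. Each mouse gave podocytes sorted by TdTomato or by EGFP. The labels do not say what the colours mean; as the study is known, TdTomato podocytes express human CD25, the receptor to which LMB2 binds, while EGFP podocytes beside them do not. The 7 arrays came from 7 different mice, and each of these mice also gave a TdTomato array. Day 0 mice, used below for orientation, were sampled before the toxin, and their surgery is not stated in the labels.

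Podocytes are the epithelial cells that wrap the glomerular capillaries. Their interlocking foot processes are joined by the slit diaphragm, a filter built around nephrin, and rest on the glomerular basement membrane. Podocytes hardly divide, and a glomerulus that loses some of them exposes the remaining ones to stretch, leaked plasma protein and signals from dying neighbours. LMB2 is a recombinant immunotoxin: a CD25-binding antibody fragment carries a Pseudomonas exotoxin domain that stops translation elongation. The comparison of day 4 with day 1 in the EGFP cells asks how podocytes without the toxin's receptor change while their neighbours are dying.

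The sorted cells carried the defining podocyte transcripts at high levels on all 7 arrays. Values are log2 signals relative to each array's 75th percentile, so that 0 is that percentile. Synpo, which encodes synaptopodin, had a mean log2 signal of 7.48 ± 0.24 (SD, n = 3) at day 1 and 7.76 ± 0.11 (n = 4) at day 4. Wt1, the podocyte transcription factor, had 7.99 ± 0.48 and 8.05 ± 0.26. Between 48.4% and 57.7% of the spots of these 7 arrays were well above background, and none was saturated. Over all genes the day 1 arrays correlated with each other at 0.977 to 0.985, the day 4 arrays at 0.972 to 0.983, and arrays of different days at 0.969 to 0.989. At day 7, the deposited values of both arrays of mouse MC221 matched the scanner file of another day 7 mouse better than their own, so the counts of calls and the day 7 values are given with and without these arrays. All day 0 and day 1 arrays lay in row 1 of their slides and all day 4 and day 7 arrays in row 2, so slide row and day cannot be told apart.

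Few genes separated the days. Of 15622 genes tested, 43 were called higher at day 4 (0.275% of genes tested) and 3 lower (0.0192%) by limma at a Benjamini-Hochberg adjusted p under 0.05, which is 0.294% in all. Without both arrays of MC221 in the fit the calls were 37 higher and 3 lower, of which 35 and 2 were among those 43 and 3. The 9 calls lost without MC221 were those of Timp1 (adjusted p = 0.0673), Psat1 (0.068), Pdgfa (0.0688), Sod3 (0.0631), Etv5 (0.0704), Chga (0.0739), Grk6 (0.0545), Itga11 (0.0631) and Dner (0.0513). The median log2 difference of all genes was 0.11, and that of the 43 called rises was 1.96, with a range from 0.67 to 8.23. All 43 rises had every day 4 array above every day 1 array, an ordering that 5.79% of all genes tested showed. At an unadjusted p under 0.05, 797 genes were higher (5.1%) and 258 lower (1.65%). Of the 43 rises, 39 were well above background on all 4 day 4 arrays, and 8 were above background on no day 1 array.

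The start-site sequences of 3 of the rising genes are shown because these genes stand for the groups described below: Thbs4 for matrix genes and the largest rise, P2rx7 for purinergic receptors, and Chac1 for the amino acid stress response. Each window holds 250 bases before and 50 bases after a transcription start, 5′ to 3′ on the gene's strand, from RefSeq on the build GRCm38.p6. Capitals mark matches to 3 motifs searched on both strands: TGANTCA (bound by AP-1 factors), TGATGNAA (bound by pairs of C/EBP and ATF factors) and GGAATG (bound by TEAD factors), of which only the 2 TEAD matches of Thbs4 overlapped here, by 1 base.
Thbs4, chr13:92794769-92795068, minus strand: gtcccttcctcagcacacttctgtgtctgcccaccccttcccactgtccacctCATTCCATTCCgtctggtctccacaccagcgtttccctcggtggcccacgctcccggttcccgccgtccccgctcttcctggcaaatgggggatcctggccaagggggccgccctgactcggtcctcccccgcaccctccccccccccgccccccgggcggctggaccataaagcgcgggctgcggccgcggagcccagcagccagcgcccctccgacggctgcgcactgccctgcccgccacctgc
P2rx7, chr5:122643677-122643976, plus strand: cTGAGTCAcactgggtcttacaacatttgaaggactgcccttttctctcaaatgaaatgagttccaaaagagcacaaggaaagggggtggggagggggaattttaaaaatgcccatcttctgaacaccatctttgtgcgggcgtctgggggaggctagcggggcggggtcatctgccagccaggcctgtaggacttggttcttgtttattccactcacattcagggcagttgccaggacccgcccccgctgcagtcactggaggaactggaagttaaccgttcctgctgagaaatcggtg
Chac1, chr2:119350992-119351291, plus strand: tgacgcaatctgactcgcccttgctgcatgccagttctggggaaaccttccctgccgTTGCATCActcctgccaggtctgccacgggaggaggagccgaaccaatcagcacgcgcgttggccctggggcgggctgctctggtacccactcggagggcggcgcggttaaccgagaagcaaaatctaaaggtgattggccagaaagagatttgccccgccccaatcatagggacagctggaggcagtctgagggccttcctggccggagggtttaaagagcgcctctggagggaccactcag
In the Thbs4 window the TEAD letters lie on the other strand, as CATTCC, at positions -197 and -192 from the start. The P2rx7 window holds TGAGTCA at position -249 from the start, and a second P2rx7 window in the table (chr5:122650133-122650432) holds none of the 3 motifs. The Chac1 window holds TTGCATCA, the C/EBP-ATF letters on the other strand, at position -193. Of 31 called genes with at least 1 window, 40 windows were searched. The AP-1 letters were in 3 of the 40 against 7.81% of all 32851 windows, the C/EBP-ATF letters in 1 against 3.97%, and the TEAD letters in 6 against 14.7%. These are matches of letters only, and Crct1 is named without a window.

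The calcium-binding protein gene S100a6 and the metalloproteinase inhibitor gene Timp1 rose, both known markers of epithelial injury. S100a6 had log2 signals of 0.68, 0.38 and 0.07 in the day 1 mice MC125, MC541 and MC542 and of 3.17, 2.45, 4.73 and 3.21 in the day 4 mice MC151, MC692, MC822 and MC823, the order of mice used throughout. The lowest day 4 array stood well above the highest day 1 array, and MC822 was the highest. The rise was 3.02 ± 0.46 (log2 ± SE, adjusted p = 0.00211), or 8.10-fold. It was called without each of the 7 arrays in turn. With only the 7 arrays in the fit the adjusted p was 0.178. Timp1 had log2 signals of -1.46, -2.48 and -1.58 at day 1 and of 0.01, -1.18, 0.59 and -0.24 at day 4. MC692 came within a small distance of the day 1 range, and the rise was 1.63 ± 0.35 (adjusted p = 0.0426), or 3.10-fold. The Timp1 call was lost when any array but that of MC692 was left out, with adjusted p-values up to 0.451.

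The third marker given for the comparison, the transferrin receptor gene Tfrc, which imports iron, did not pass the test. Its log2 signals were -0.19, 0.64 and 0.63 at day 1 and -1.14, -0.86, -0.64 and -0.53 at day 4. All day 4 arrays lay below all day 1 arrays, an ordering that 1.83% of all genes tested showed. The difference was -1.15 ± 0.29 (adjusted p = 0.108), and with the slide as a block it was -1.24 (adjusted p = 0.00679). The list of iron uptake, storage and heme has 29 measured members, Tfrc among them, and none was called. At an unadjusted p under 0.05, 2 were higher and 1, Tfrc itself, was lower, and the median of the list was 0.09. The ferritin chains Ftl1 and Fth1 had differences of 0.17 ± 0.37 and 0.04 ± 0.23.

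**Figure D1:**
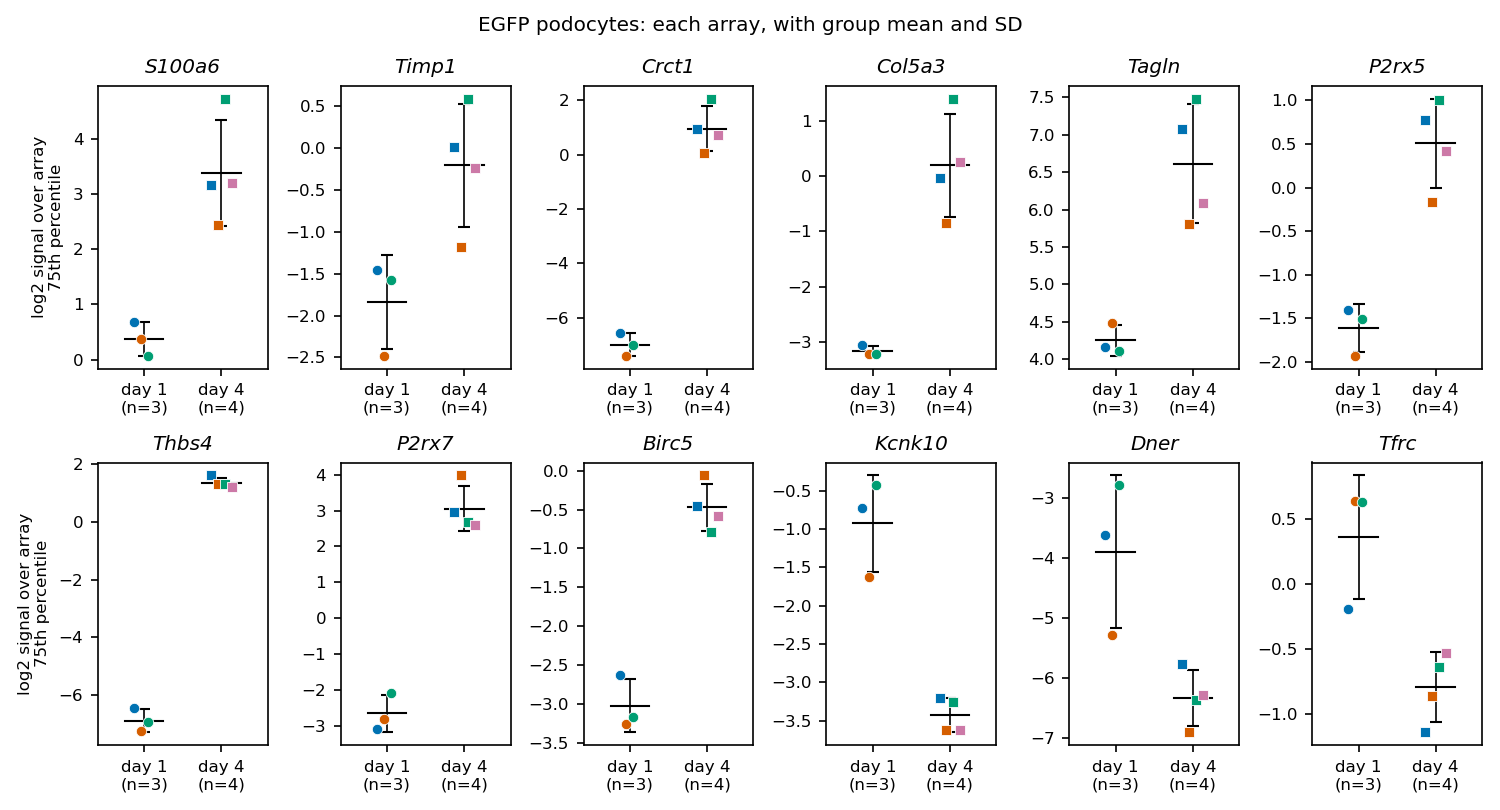
Log2 signal over the array's 75th percentile for 12 genes in EGFP podocytes of day 1 (circles, n = 3) and day 4 (squares, n = 4), with group mean and SD. Points of one colour share a slide, and the array of MC823 has no day 1 partner. In 11 of the 12 panels the gene was called, and in all 12 the groups do not overlap, Tfrc included, which did not pass the test. Of all genes tested, 5.79% had every day 4 array above every day 1 array and 1.83% every one below. The called panels were picked on these same arrays.

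Genes of the podocyte's filter were not called. Of 32 measured members of the slit diaphragm and foot process list none passed the test. Of all genes tested only 0.294% did, so a count of 0 says little about a list of this size. At an unadjusted p under 0.05, 5 of the 32 were higher (5.1% of all genes were) and none lower. The median of the list was 0.23. Nphs1, which encodes nephrin, differed by 0.22 ± 0.18 (adjusted p = 0.905). Podxl, the sialoprotein of the podocyte surface, differed by 0.16 ± 0.31 and Synpo, the actin-associated synaptopodin, by 0.28 ± 0.15. Of 12 podocyte transcription factors and 21 basement membrane genes none was called, with medians of 0.08 and 0.36. Des, which encodes the intermediate filament desmin often seen in injured podocytes, had log2 signals of -1.55, -1.14 and -1.48 at day 1 and -0.91, -0.61, -0.64 and -0.03 at day 4. All day 4 arrays lay above all day 1 arrays for Des, an ordering that 5.79% of all genes tested showed. Its difference of 0.84 ± 0.28 did not pass the test (adjusted p = 0.398).

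Contractile and matrix genes were among the called rises. Tagln, which encodes the actin-binding transgelin, had log2 signals of 4.16, 4.49 and 4.11 at day 1 and 7.08, 5.81, 7.48 and 6.09 at day 4. MC151 and MC822 were the higher day 4 mice, and the rise of 2.36 ± 0.37 (adjusted p = 0.00224) equalled 5.13-fold. Tagln was the 1 called member of 40 in the focal adhesion and contractile actin list, in which 11 were higher at an unadjusted p under 0.05. Col5a3, a chain of type V collagen, had log2 signals of -3.07, -3.22 and -3.22 at day 1 and -0.02, -0.85, 1.41 and 0.27 at day 4. Its day 1 arrays were nearly alike and all day 4 arrays stood far above them, a rise of 3.37 ± 0.49 (adjusted p = 0.000955), or 10.4-fold. Mmp2, the matrix protease gelatinase A, rose by 1.87 ± 0.37 (adjusted p = 0.0219), from log2 signals of -3.50 to -2.88 at day 1 to -1.74 to -0.79 at day 4, and its call was lost without any single array but that of MC692. In the matrix protease list 2 of 31 members were called, Timp1 and Mmp2. In the TGF-beta and extracellular matrix list 2 of 37 were called, Col5a3 and Thbs4, while 14 were higher and 0 lower at an unadjusted p under 0.05 and the median was 0.60 against 0.11 for all genes. Among those 14, named after their values were seen, were Ltbp3 (0.72, adjusted p = 0.101), Tgfb1 (0.98, adjusted p = 0.17) and Col5a1 (1.92, adjusted p = 0.213), which did not pass the test.

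The matricellular gene Thbs4 showed the largest rise. It was not above background on any day 1 array, with log2 signals of -6.45, -7.25 and -6.92, and reached 1.61, 1.30, 1.32 and 1.20 at day 4. The day 4 arrays lay within a narrow band, and the signal was at least 85.9-fold higher at day 4 (fitted difference 8.23 ± 0.41, adjusted p = 4.32e-12). The bound takes for each day 1 array the dimmest signal called above background. This bound and those below hold for the main processing only. Over the alternatives the lowest difference of Thbs4 was 3.36. Its relation to the TdTomato cells is given below.

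Purinergic receptors, which sense extracellular ATP, gave 2 calls in a list of 16 measured members. P2rx7, an ATP-gated channel tied to inflammation and cell death, had log2 signals of -3.08, -2.80 and -2.07 at day 1 and 2.95, 3.98, 2.67 and 2.61 at day 4. Every day 4 array was far above every day 1 array, with MC692 the highest, and the rise of 5.70 ± 0.43 (adjusted p = 1.63e-08) was 52.0-fold. On the linear scale this P2rx7 rise was 1.76% of that in the TdTomato cells, as described below. P2rx5, another ATP-gated channel, went from -1.40, -1.93 and -1.51 to 0.78, -0.17, 1.00 and 0.42. MC692 was the lowest day 4 array for P2rx5, and the rise was 2.12 ± 0.37 (adjusted p = 0.00883), or 4.34-fold; without the day 1 array of MC541 the call was lost. The median of the list was 0.61.

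Genes of amino acid stress gave 2 calls. Chac1, an enzyme that degrades glutathione and a known ATF4 target, had log2 signals of -3.50, -3.38 and -3.29 at day 1 and -0.03, -1.62, 0.45 and -1.28 at day 4. MC151 and MC822 were again the higher mice, and the rise was 2.77 ± 0.56 (adjusted p = 0.0258), or 6.81-fold. Psat1, the aminotransferase of serine synthesis, rose 2.30-fold (1.20 ± 0.26, adjusted p = 0.045). They were 2 of 28 members of the list of ATF4 targets and serine synthesis, with a median of 0.35. The calls of Chac1 and Psat1 were each lost without the array of MC822, of MC151 or of any day 1 mouse. In the unfolded protein response list 0 of 21 members were called (2 at an unadjusted p under 0.05), where 0.294% of all genes were called. The chaperone gene Hspa5 differed by 0.05 ± 0.15.

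Growth factors and cell fate genes followed. Pdgfa, a growth factor for mesenchymal cells, rose 2.71-fold (1.44 ± 0.32, adjusted p = 0.0496), just past the threshold, and was the 1 called member of 27 in the growth factor list. Gdnf, a neurotrophic factor that also acts in kidney development, had log2 signals of -0.88, -1.54 and -1.72 at day 1 and 1.92, 0.11, 0.22 and 0.93 at day 4. MC151 was the highest, and the rise was 2.18 ± 0.45 (adjusted p = 0.0298), or 4.52-fold. Bok, a member of the BCL2 family, rose 3.61-fold (1.85 ± 0.38, adjusted p = 0.0274). Birc5, which encodes survivin and is needed for chromosome segregation, had log2 signals of -2.63, -3.26 and -3.17 at day 1 and -0.46, -0.06, -0.79 and -0.58 at day 4. The days were clearly apart, and the rise of 2.55 ± 0.29 (adjusted p = 2.97e-05) was 5.85-fold. On the linear scale this Birc5 rise was 0.866% of that in the TdTomato cells, as described below. Leaving out 1 array ended the call of Pdgfa for every array but that of MC692, of Gdnf for MC541, MC542, MC151 and MC823, and of Bok for MC151, MC822 and each day 1 mouse. Birc5 was the 1 called member of 30 in the cell cycle list, whose median was 0.12 and in which 1 member was lower at an unadjusted p under 0.05.

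Several further genes were named for the size of their rise. Crct1, known from epidermal differentiation, was above background on no day 1 array (-6.58, -7.40 and -6.99) and had log2 signals of 0.95, 0.06, 2.06 and 0.74 at day 4. It was at least 64.9-fold higher at day 4 (fitted difference 7.94 ± 0.66, adjusted p = 8.79e-08), with MC822 highest and MC692 lowest. Dlx4, a homeobox transcription factor, went from -3.58, -4.47 and -4.55 to -1.52, -0.90, -1.50 and -1.10, a 7.70-fold rise (2.94 ± 0.33, adjusted p = 2.13e-05). Spon2, a secreted matrix protein, rose 6.28-fold (2.65 ± 0.55, adjusted p = 0.0302). Efcab3, an EF-hand protein, differed by 3.50 ± 0.59 (adjusted p = 0.00731) but was above background on only 1 of 3 day 1 arrays. Myo1g, a myosin of blood cells, was at least 7.87-fold higher (adjusted p = 0.0154), and Ucp1, the uncoupling protein of brown fat, at least 2.80-fold higher (adjusted p = 0.0154). Prm1, a protamine of sperm, rose by 3.11 ± 0.61 (adjusted p = 0.0202) and was above background on 2 of 3 day 1 arrays. Baalc was above background on 1 of 4 day 4 arrays and at least 1.67-fold higher, and Bpifb6 on 2 of 4 and at least 2.21-fold higher. The call of Efcab3 was lost without MC542, those of Ucp1, Baalc and Bpifb6 without MC541 or MC542, and that of Myo1g also without MC822. Prm1 kept its call without MC125 or MC823, and Spon2 kept it without MC125, but not without any other array. Further called rises fall outside the rule for naming: Adamts2, Cds2, Cfap53, Chga, Cib2, Crygn, Etv5, Fgfrl1, Grk6, Hrct1, Itga11, Lgals3, Meiob, Nrip3, Prl2a1, Sod3, Svep1 and Tubb6. They are named here after their values were seen. Among them the matrix and adhesion genes Adamts2, Itga11 and Svep1 rose 2.94-fold, 2.41-fold and 1.90-fold. Adamts2 lost its call without MC541, Svep1 lost it for 4 of the 7 arrays, and Itga11 for all 7. Nrip3 was above background on no array of either day and has no fold.

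**Figure D2:**
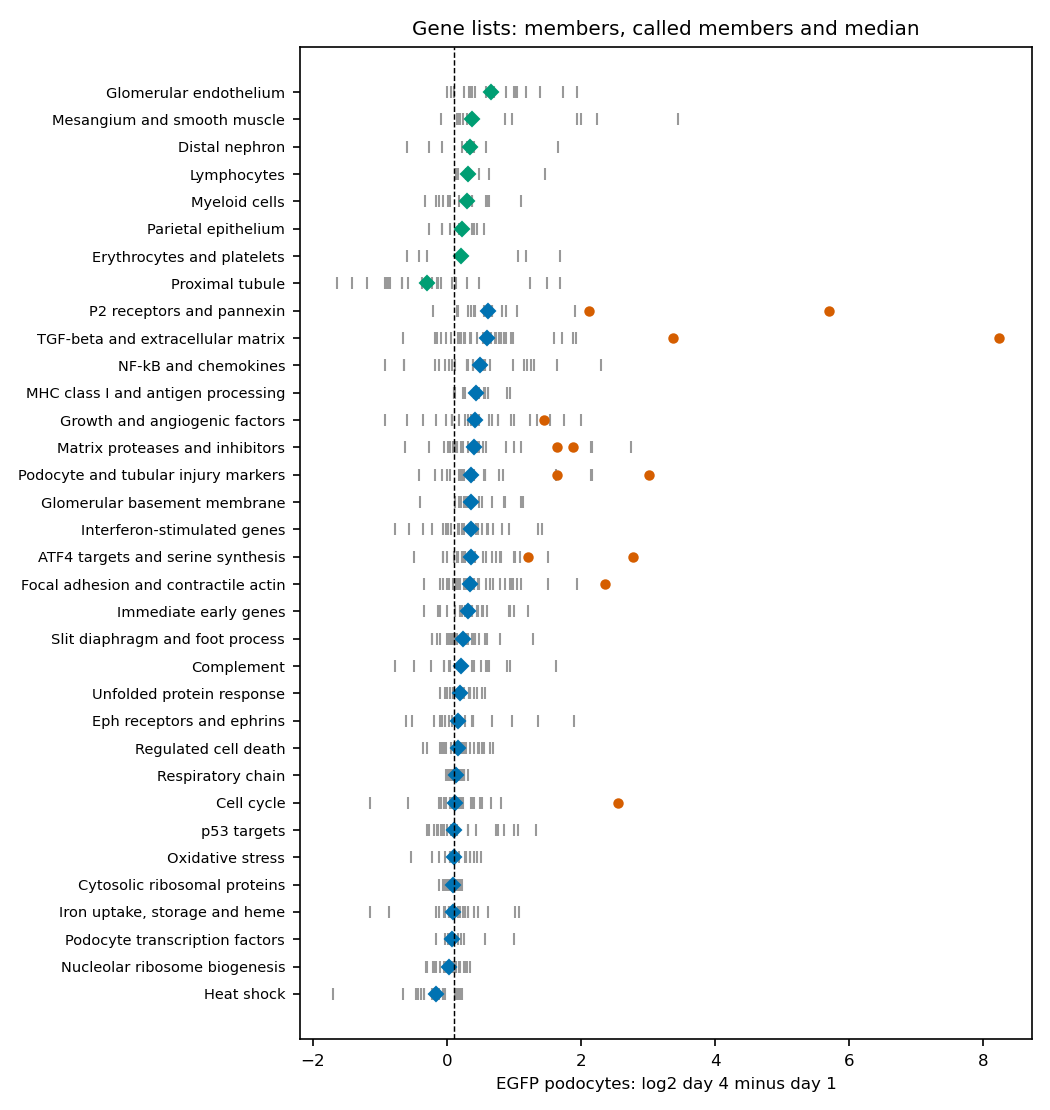
Difference of day 4 minus day 1 in EGFP podocytes (log2) for the members of 34 gene lists: each tick is a gene, orange points are called members, diamonds are list medians (blue for biology, green for cell types). The dashed line is the median of all genes, 0.11. Of these lists 8 hold a called member and none of the 8 cell type lists does, where 0.294% of all genes tested were called.

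The 3 genes called lower were Kcnk10, Dner and Acsbg2. Kcnk10, a background potassium channel, had log2 signals of -0.73, -1.63 and -0.42 at day 1 and -3.21, -3.62, -3.26 and -3.62 at day 4. The day 4 arrays were alike and all below day 1, a fall of 2.50 ± 0.45 on the log2 scale (adjusted p = 0.0111), or 5.66-fold. Its mean at day 0 was -3.71 ± 0.35 (n = 4), so the day 4 mean of -3.43 ± 0.22 lay near the day 0 mean. Dner, a transmembrane protein that binds Notch, had log2 signals of -3.61, -5.29 and -2.79 at day 1 and was above background on no day 4 array, at least 1.5-fold lower at day 4 (adjusted p = 0.0312). Dner and Kcnk10 were also 2 of the 4 genes called higher at day 1 than at day 0 (0.0256% of genes tested), by 3.23 and 2.78 (adjusted p = 0.0115 for both), a comparison that shares the day 1 arrays. Dner was above background on no day 0 array, so its 3.23 is a fitted value and no bound. Acsbg2, an acyl-CoA synthetase, had log2 signals of -4.44, -2.40 and -4.10 at day 1, of which 2 arrays were above background, and was at least 1.78-fold lower at day 4 (adjusted p = 0.0154). Its difference of day 1 from day 0, 1.83, did not pass the test (adjusted p = 0.749). The call of Kcnk10 was lost without MC542, that of Acsbg2 without MC541, MC542 or MC822, and that of Dner without any array but those of MC541 and MC151.

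Against day 0, 30 of the 43 rises were also called higher at day 4 (0.557% of all genes tested were), a comparison that uses the same day 4 arrays. For 40 of the 43 the day 1 arrays overlapped the day 0 arrays. The share of all genes with such an overlap was not computed, so this count shows nothing particular to the 43. S100a6 had a mean log2 signal of 0.52 ± 0.54 at day 0 and 0.37 ± 0.31 at day 1. Tagln had 4.83 ± 0.41 and 4.25 ± 0.20, and Timp1 had -2.52 ± 0.38 and -1.84 ± 0.56. At day 7, 18 of the 43 were called higher than at day 4 (2.96% of all genes were) and 7 lower (1.72%). Without the arrays of MC221 these counts were 18 and 5. This comparison uses the same day 4 arrays on which the 43 were picked, which favours falls from day 4. The day 7 means were 7.92 ± 0.33 for S100a6, 3.24 ± 0.29 for Timp1, 9.43 ± 0.29 for Tagln, 5.43 ± 0.56 for Crct1 and 4.67 ± 0.37 for Col5a3 (n = 4). Without MC221 these means were 7.96, 3.24, 9.28, 5.44 and 4.69 (n = 3). Each of these 5 genes was called higher at day 7 than at day 4, with and without MC221. P2rx7 was at 1.38 ± 0.55 at day 7, with a difference from day 4 of -1.67 (adjusted p = 0.0116), which without MC221 was -1.54 and not called (adjusted p = 0.0541). Adamts2, a procollagen protease, and Sod3, the extracellular superoxide dismutase, fell by 2.11 and 2.35 from day 4 to day 7, and without MC221 by 1.90 and 2.34. Thbs4 had 0.44 ± 0.44 at day 7, and its difference of -0.92 from day 4 did not pass the test (adjusted p = 0.219).

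The same days were compared in the TdTomato podocytes of 4 mice each, the cells that carry the toxin's receptor. There 3770 genes were called higher (24.1%) and 4099 lower (26.2%), against 43 and 3 in the EGFP cells. The change in TdTomato differed from that in EGFP for 5265 genes (33.7%) by limma's interaction test, and for 5214 without MC221. That fit treats arrays of the same mouse as independent; with mice as random blocks 8209 genes were called. Of the 43 EGFP rises, 34 were also called higher in TdTomato, 4 were called lower and 5 were not called. The interaction was called for 21 of the 43, with the TdTomato change below the EGFP change for 11 (20.2% of all genes) and above it for 10 (13.5%). The 43 were picked for a large rise on the same EGFP arrays, which favours a TdTomato change below the EGFP change. With mice as random blocks it was called for these 21 and for S100a6, Sod3 and Ucp1, below for 13 and above for 11. The EGFP and TdTomato arrays of these days came from the same mice, 1 TdTomato array of day 1 excepted.

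Matrix, contractile and injury genes were among those that changed more in EGFP. For Crct1 the TdTomato change was below the EGFP change by 5.17 ± 0.90 (adjusted p = 9.53e-05), a fitted value since the gene was above background on no day 1 EGFP array, and for Col5a3 by 4.50 ± 0.66 (adjusted p = 1.3e-05). Mmp2, Bok and Col5a3 were called lower in TdTomato between these days, by 1.32, 1.21 and 1.13, while they rose in EGFP. For Timp1 the difference between the populations was -2.17 ± 0.48 (adjusted p = 0.00111) and for Tagln -1.98 ± 0.50 (adjusted p = 0.00347). The TdTomato cells had stood higher at day 1 for several of these genes: Timp1 had a mean log2 signal of 0.90 ± 0.70 (n = 4) in TdTomato and -1.84 ± 0.56 (n = 3) in EGFP at day 1, and 0.36 ± 0.24 and -0.21 ± 0.74 at day 4. Col5a3 had 1.25 ± 1.05 and -3.17 ± 0.09 at day 1, and 0.12 ± 0.71 and 0.20 ± 0.93 at day 4. At day 4 the mean levels of both populations were thus within their spread for Col5a3. The EGFP signal of Col5a3 was then 98%, 88.9%, 129% and 112% of the TdTomato signal of the same mouse on the linear scale. For Timp1 these shares were 68.6%, 36.5%, 102% and 80.8%. For S100a6 the difference between the populations was -1.49 ± 0.63 and was not called (adjusted p = 0.0729), whereas with mice as random blocks it was -1.37 ± 0.35 and called (adjusted p = 0.00221). The podocyte genes Nphs1 and Synpo differed between the populations in their change by -1.08 (adjusted p = 0.00154) and -1.08 (adjusted p = 0.00022), since they fell in TdTomato by 0.85 and 0.80.

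**Figure D3:**
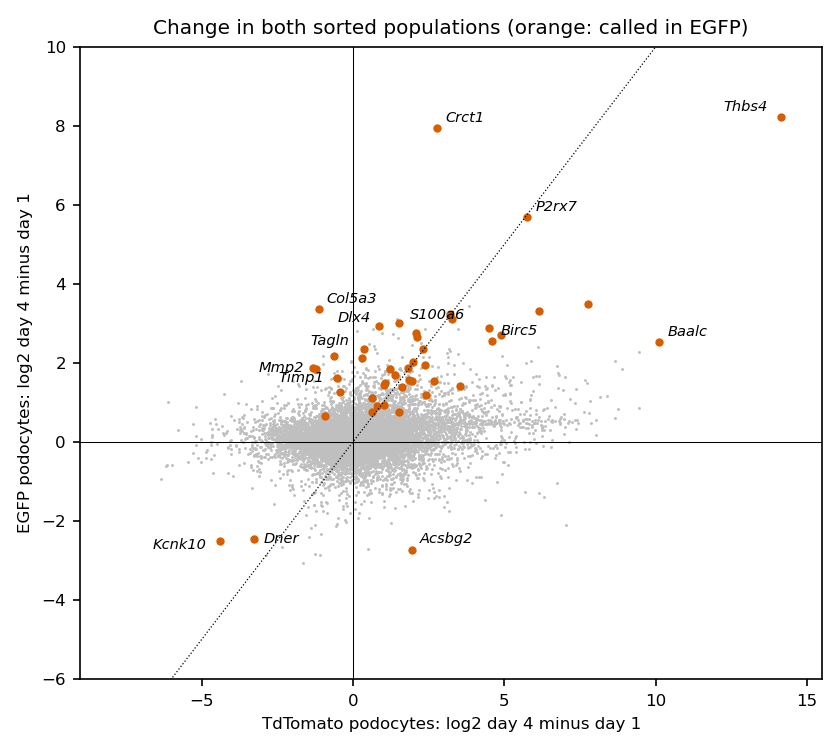
Difference of day 4 minus day 1 (log2) in TdTomato podocytes (x axis) and in EGFP podocytes (y axis) for 15622 genes, with the 46 genes called in EGFP in orange and equal change as a dotted line. Crct1 (2.77 in TdTomato, 7.94 in EGFP) lies above the line, Thbs4 (14.16 and 8.23) and Baalc (10.13 and 2.53) below it, and Acsbg2 rose in TdTomato by 1.95 while it fell in EGFP. These are fitted values: Thbs4 and Baalc were above background on no day 1 array, and Acsbg2 on no EGFP array of day 4.

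A further set of rises was small beside the rise of the same gene in TdTomato. For Thbs4 the EGFP signal at day 4 was 0.951%, 1.56%, 1.43% and 1.36% of the TdTomato signal of the same mouse on the linear scale. For P2rx7 it was 1.01%, 3.43%, 1.43% and 1.61%, and for Birc5 0.83%, 1.33%, 0.831% and 1.04%. The shares of these 3 genes thus ran from 0.83% to 3.43%, with the highest in MC692 for each of them. For Bpifb6 the share ran more widely, from 2.14% to 15.8%, and for Myo1g from 0.335% to 2.61%, with MC822 the highest for both. As a reference served 129 genes that were above background on no day 0 or day 1 array of either population, were above background on all 4 TdTomato arrays of day 4 and had risen there by a log2 of at least 4. Over these genes the rise in EGFP was at the median 1.19% of the rise in TdTomato (5th percentile -0.152%, 95th percentile 9.89%), and 2 of them, Thbs4 and Baalc, were called in EGFP. Of the 129 genes 113 were above background on no EGFP array of day 4, so the reference describes signals mostly at background. Without Thbs4 and Baalc, a choice made after seeing the data, the 95th percentile over the other 127 was 9.95%. Of the 43 called rises, 12 amounted to at most 9.89% of the TdTomato rise, and also to at most 9.95%: Thbs4 (1.25%), P2rx7 (1.76%), Efcab3 (0.933%), Myo1g (0.772%), Prm1 (0.608%), Ucp1 (0.465%), Birc5 (0.866%), Baalc (0.617%), Prl2a1 (0.321%), Cfap53 (1.20%), Bpifb6 (6.43%) and Nrip3, which was not above background. Thbs4 and Baalc belong to the reference as well, so their place under its percentile is a description only. A further 24 were above that share, 18 of them with a rise at least as large as in TdTomato, and for 7 the TdTomato mean did not rise on the linear scale. S100a6 rose in EGFP by 199% of the TdTomato rise, Crct1 by 276% and Tagln by 569%. The falls of Kcnk10 and Dner in EGFP were 0.568% and 0.595% of their falls in TdTomato, where their day 1 means were 6.30 ± 0.70 and 3.48 ± 1.08. How much of these 12 rises and 2 falls came from TdTomato cells or their RNA in the EGFP sort was not tested.

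**Figure D4:**
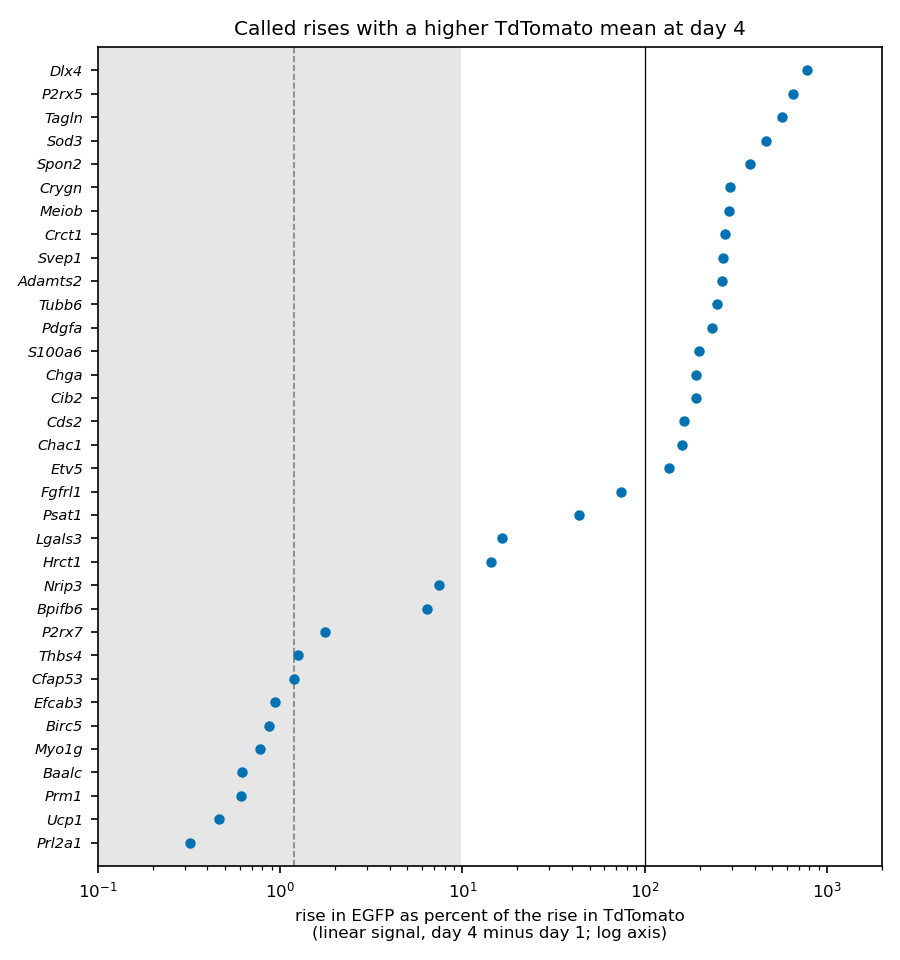
Rise of the mean linear signal from day 1 to day 4 in EGFP podocytes as a percent of the rise in TdTomato podocytes, on a log axis, for 34 called rises whose TdTomato mean also rose. The dashed line is the median of the 129 reference genes (1.19%), the grey band reaches up to their 95th percentile (9.89%), and the solid line marks an equal rise; 12 genes, among them Thbs4 and Baalc of the reference, lie in the band and 18 at or right of the solid line.

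Markers of other glomerular and kidney cells gave no calls. Only 0.294% of all genes tested were called, so 0 calls in lists of these sizes say little about these cells. At an unadjusted p under 0.05, 5.1% of all genes were higher. Of 19 endothelial markers 0 were called (1 higher at an unadjusted p under 0.05). All 19 lay above 0, with a median of 0.65, the highest of the 8 cell type lists, against 0.11 for all genes. Their summed linear signal was 165 to 189 at day 1 and 158 to 223 at day 4. That sum rests mostly on Cldn5, with mean log2 signals of 7.35 and 7.42, while the next brightest member, Kdr, had 2.79 and 3.13. The overlap of the endothelial sums therefore says little about the other members. Of 14 markers of mesangium and smooth muscle 0 were called (4 higher at an unadjusted p under 0.05), with a median of 0.37 and summed signals of 41.7 to 60.8 at day 1 and 53.8 to 77.1 at day 4. The sums of both lists overlapped between the days, and 0 of the 14 mesangial markers and 2 of the 19 endothelial ones were above background on none of the 7 arrays. Parietal epithelium had 0 of 11 called and summed signals of 36.7 to 40.4 and 35.5 to 40.1. Proximal tubule had 0 of 22 called, a median of -0.30 and sums of 2.97 to 16.1 at day 1 and 3.16 to 10.9 at day 4. Distal nephron had 0 of 10 called and 2 higher at an unadjusted p under 0.05, with a median of 0.34. Its summed signals of 32.4 to 39.2 at day 1 and 40.5 to 50.01 at day 4 did not overlap, but 3 of the 10 members lay below 0. The sum rests mostly on Egf, which had log2 signals of 4.78, 4.84 and 5.19 at day 1 and 5.28, 5.35, 5.57 and 5.18 at day 4. Egf itself overlapped between the days and was not called (0.41 ± 0.19, adjusted p = 0.714), so the sum does not describe the list as a whole. Myeloid cells (0 of 16), lymphocytes (0 of 7) and erythrocytes and platelets (0 of 8) had medians of 0.30, 0.31 and 0.21. Their sums overlapped: 36.0 to 49.9 and 32.3 to 50.9 for myeloid cells, 3.16 to 5.90 and 3.50 to 7.88 for lymphocytes, and 0.341 to 1.05 and 0.308 to 3.85 for erythrocytes and platelets. The part of these cells in the called rises was not tested, and fewer cells of a type cannot be told apart from less RNA per cell in such samples.

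Lists of stress and housekeeping genes held no called member. With 0.294% of all genes tested called, a count of 0 in such a list says little about its genes. NF-kB and chemokine genes (0 of 32 called, 5 higher and 1 lower at an unadjusted p under 0.05) had a median of 0.49, with Nfkbia, the inhibitor of NF-kB, at 0.31 ± 0.29. Interferon-stimulated genes (0 of 27) had a median of 0.36 and MHC class I genes (0 of 16) one of 0.44, with all 16 members above 0. Immediate early genes (0 of 27) had a median of 0.32, and Jun, a subunit of AP-1, differed by 0.20 ± 0.30. The p53 targets (0 of 25), oxidative stress genes (0 of 19) and cell death genes (0 of 31) had medians of 0.11, 0.10 and 0.16. Cytosolic ribosomal proteins (0 of 68), respiratory chain genes (0 of 47) and nucleolar ribosome biogenesis genes (0 of 28) had medians of 0.10, 0.13 and 0.03, near that of all genes, 0.11. Heat shock genes (0 of 21, 0 at an unadjusted p under 0.05) had the lowest biology list median, -0.16, and 15 of 21 lay below 0. Eph receptors and ephrins (0 of 20) and complement genes (0 of 19) had medians of 0.16 and 0.21.

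The 4 day 4 mice did not contribute evenly. MC822 was the highest of the 4 for 23 of the 43 rises, MC692 for 9, MC151 for 6 and MC823 for 5. The lowest array was that of MC823 for 16 rises, MC692 for 15, MC151 for 7 and MC822 for 5. Without MC822 18 genes were called, without MC151 29, without MC823 32 and without MC692 43. Among the day 1 mice the calls fell to 13 without MC542, to 14 without MC541 and to 38 without MC125. Of the 43 rises 9 were called without each of the 7 arrays in turn: S100a6, Thbs4, Crct1, P2rx7, Col5a3, Dlx4, Tagln, Birc5 and Prl2a1. Slides 1, 2 and 3 each held a day 1 and a day 4 EGFP array, and within each of them all 43 rises were above 0 and all 3 falls below 0. The median difference of the 43 rises was 2.03, 1.76 and 2.31 on these slides, against 0.117, 0.125 and 0.116 for all genes. The called genes were picked on these same arrays, and none of them overlapped between the days. These signs were thus fixed beforehand, the medians share that choice, and neither adds support. With the slide as a block in the fit 95 genes were called higher and 11 lower, and all 46 genes called without the block were among them.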

How the data were processed

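The deposited scanner files are single-colour Agilent arrays; per the file headers, Agilent Feature Extraction 11.5.1.1 (also in the submitters' processing notes) subtracted background and gave the processed signal, an intensity per spot. Per the labels, RNA came from FACSAria-sorted cells in TRIzol LS, labelled with Cy3. The log2 values of the authors' deposited table served as an alternative; how they were scaled is unknown. Column medians lay between -3.18 and -2.33, and in 27 of 29 columns they exceeded the scaled scanner values by a median of 0.125 to 0.216; the 2 columns of MC221 matched another file better.

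Here log2 signals were scaled to each array's 75th percentile, outlier spots set aside (48 missing values) and probes kept that were well above background on at least 3 of 29 arrays. RefSeq accessions named 26576 of 55681 probes, and the brightest probe stood for a gene. limma 3.58.1 (R 4.3.3) fitted 8 group means to all 29 arrays. The fit was tested on simulated data. Figures used Python 3.11.15 and matplotlib 3.10.9. Start windows came from RefSeq on GRCm38.p6.

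Members, markers and lists were chosen with earlier results of these data known. Named genes are the markers and podocyte genes given, the 12 largest rises and 8 largest falls above background without overlap, every called gene of a direction with 10 or fewer calls, up to 3 called members per list, the 2 brightest members of a list without calls, and the 6 largest differences from TdTomato in each direction. Some genes picked by the rule are left out. Normexp (offset 50) used median spot signals.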

Additional observations from a re-analysis of the deposited data

Results flagged for a closer look

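Of 84 named or listed genes, 8 had 1 of the 4 day 4 EGFP arrays apart from the other 3, judged by the gap to the nearest array over the whole range of the group (critical value 0.829). Chance flags about 1 in 20 such groups. The array of MC151 was apart for Fth1 (0.86), Ndufa13 (0.874), Ndufb4 (0.897), Sod1 (0.858) and the erythrocyte anion exchanger Slc4a1 (0.836), with log2 signals of 7.80, 8.05, 7.49, 6.91 and -2.70. MC823 was apart for H2-K1 (0.897), MC692 for Gpx4 (0.913) and MC822 for Bpifb6 (0.853), with log2 signals of 6.22, 6.90 and -1.79. Of these 8 genes Bpifb6 is the called rise.

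For 18 of the 27 named called genes the change from day 1 to day 4 differed between TdTomato and EGFP by limma's interaction test at an adjusted p under 0.05. Some of these genes were named because of this difference, and all were picked on the same EGFP arrays, so the count is raised by the choice. Over all genes tested the share was 33.7%, and of the 43 called rises it was 21. The TdTomato change was above the EGFP change by a log2 of 7.60 for Baalc, 5.93 for Thbs4, 4.67 for Acsbg2, 4.27 for Efcab3, 2.86 for Myo1g, 2.18 for Bpifb6, 2.06 for Birc5 and 1.21 for Psat1. It was below the EGFP change, with differences of -5.17 for Crct1, -4.50 for Col5a3, -3.20 for Mmp2, -3.06 for Bok, -2.80 for Gdnf, -2.17 for Timp1, -2.08 for Dlx4, -1.98 for Tagln, -1.90 for Kcnk10 and -1.83 for P2rx5. Thbs4 and Baalc were above background on no day 1 array of either population, Crct1, Myo1g and Bpifb6 on no EGFP array of day 1, and Acsbg2 on no EGFP array of day 4. The differences of these 6 genes are fitted values that depend on signals not above background, so they are no bounds and have no order of size. The Kcnk10 difference is between a larger fall in TdTomato and a smaller one in EGFP.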

How the results depend on the processing

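All 46 genes called between day 1 and day 4 kept the sign of their difference under every alternative that gave them a value. Their size did not hold in the same way, and folds given as at least a value are bounds for the main processing only. Over the alternatives the lowest log2 rise was 3.36 for Thbs4, 3.12 for Crct1, 0.86 for Myo1g and 0.47 for Ucp1. It was 0.34 for Baalc and 0.47 for Bpifb6, and the smallest falls were -0.38 for Acsbg2 and -0.32 for Dner. The number called depended on the processing: against 46, it was 26 with normexp background correction, 7 with only the 7 arrays compared in the fit, 18 with only the EGFP arrays in the fit, 106 with the slide as a block and 160 with array weights, and it ran from 13 to 43 without 1 of the 7 arrays. It stayed within 1.5 times with quantile normalization (53), no filter (36) or a stricter one (41) for dim probes, the values deposited by the authors (65), the mean of a gene's probes (45), the mouse as a random block (44), and, chosen after seeing the data, the EGFP arrays alone with the slide as a block (36) and without MC221 (40). Of the 43 rises 5 were called under every alternative and without each array: Thbs4, Crct1, P2rx7, Dlx4 and Birc5. Thbs4, P2rx7 and Birc5 are among the rises that amounted to at most 9.89% of the TdTomato rise. Over the 27 named called genes, 274 values under the other alternatives kept the call and 73 lost it, and without 1 array 116 kept it and 73 lost it. The count of genes whose change differs between the populations, 5265, was 8209 with mice as random blocks and ran from 4659 to 5652 without 1 array. Fits with fewer arrays have fewer degrees of freedom for the spread, and their estimate of spread comes from other arrays. The cause of these moves was not tested. Tfrc passed the test with a slide block, with array weights (adjusted p = 0.0262) and with mice as random blocks (adjusted p = 0.0445). No paired analysis was possible by mouse or replicate number, because each mouse was sampled on 1 day and replicate numbers were given in accession order; the slide pairs 3 arrays of each day, and its block is the one given above. The number of arrays limits the precision, and fitted values of genes not above background are imprecise.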
